A study of Mus musculus with 4 samples.

Results

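Accessible chromatin away from promoters was examined in visceral fat of outbred CD-1 mice. The regions described were chosen by the peaks themselves: peaks of 4 ATAC-seq libraries on chromosomes 1 to 19 were pooled, overlapping intervals were merged, and a region was kept when all 4 libraries had a peak in it and its midpoint lay more than 2 kb and up to 50 kb from the nearest start site of a curated RefSeq transcript (mm10). Of 144198 merged regions 75595 lay at that distance in any number of libraries, 37960 were shared by all 4 libraries at any distance, and 17056 met both conditions. These 17056 are called shared distal regions here. Being present in every list is therefore how they were found and not a result. At the lower limit the last region kept lay 2001 bp from Sstr1 and the first left out 1999 bp from Hoxb3, and at the upper limit they lay 49993 bp from Sgsm3 and 50001 bp from Mir3108. In control 1, control 2, BPA 1 and BPA 2 their ranks, explained below, were 23.2%, 38.6%, 49.1% and 29.0% for the Sstr1 region and 66.9%, 51.7%, 15.9% and 14.0% for the Hoxb3 region. The values were 47.1%, 40.1%, 42.9% and 39.8% for the Sgsm3 region and 14.8%, 26.5%, 31.0% and 20.6% for the Mir3108 region.

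Chromatin at distance from a start site opens where transcription factors displace nucleosomes, mostly at enhancers, which raise transcription of genes on the same chromosome, and at sites of CTCF, a zinc finger protein that holds chromatin loops. ATAC-seq reads such sites with a transposase that inserts sequencing adapters into open DNA. In fat cells, the factors known to work at distal elements include PPARγ with its partner RXR, members of the C/EBP family, EBF factors and the glucocorticoid receptor. The nearest gene is only a label for a distal region, since enhancers can act over other genes.

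The 4 libraries came from mice aged 8 weeks, in 2 groups of 2. Control animals were untreated descendants of females that received the vehicle, sesame oil, in pregnancy. BPA animals were untreated descendants of females that received bisphenol A, a weak oestrogen receptor ligand, by daily injection of 50 mg/kg at embryonic days 7.5 to 13.5. Which generation was sampled is given differently by sample titles and methods and is left unnamed here, and sex and batch are not in the labels. Control 1 held 82665 peaks, control 2 held 88911, BPA 1 held 72375 and BPA 2 held 98060, and read totals are not in the lists, so depth is unknown. The list used for BPA 2 carries another replicate number in its own name, and it was assigned by the record that ties lists to samples. As a check on tissue, all 6 adipocyte genes tested, Adipoq, Plin1, Cidec, Lep, Fabp4 and Pparg, had a promoter peak in every library and the 3 hepatocyte genes Alb, Apoa1 and Ttr in none. Of 5 endothelial genes 2 had one in each control library and 5 in each BPA library. For 3 macrophage genes the numbers were 1, 1, 2 and 2, for 3 mesothelial genes 2, 2, 2 and 1, and for 3 lymphocyte genes 1, 0, 0 and 0, in control 1, control 2, BPA 1 and BPA 2. Tissue was processed in bulk, so fewer nuclei of a cell type and less accessibility per nucleus cannot be told apart.

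The strength of a peak was read as its rank by −log10 q-value within its own list, given as a percent of that list, so that 0% is the strongest peak and 100% the weakest. Where a library had several peaks in a region the best was used. The following stretches of mm10, all from the plus strand, show what such regions hold. The strongest of all by its worst rank lay 4045 bp downstream of the start of Rn4.5s, a gene of a small non-coding RNA, at chr6:47651108-47651207 around its summit. It opens with a run of repeated triplets and no motif is marked.
Rn4.5s, strongest region: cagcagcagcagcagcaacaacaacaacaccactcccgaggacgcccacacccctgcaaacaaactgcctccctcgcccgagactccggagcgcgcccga
The next 3 are centred on a match to a motif, in the best-ranked region that holds it, at chr6:82996786-82996885 (CTCF, in an intron, 36066 bp from Dok1), chr11:57962751-57962850 (AP-1, intergenic, 46301 bp from Larp1) and chr14:67188598-67188697 (C/EBP, intergenic, 44591 bp from Ebf2).
Dok1 region, CTCF motif: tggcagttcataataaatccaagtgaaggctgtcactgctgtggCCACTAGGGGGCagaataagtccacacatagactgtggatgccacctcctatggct
Larp1 region, AP-1 motif: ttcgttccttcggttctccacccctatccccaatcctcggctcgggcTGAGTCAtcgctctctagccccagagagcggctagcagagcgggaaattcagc
Ebf2 region, C/EBP motif: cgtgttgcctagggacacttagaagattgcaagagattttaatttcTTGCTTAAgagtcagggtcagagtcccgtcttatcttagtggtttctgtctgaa
The last 2 belong to genes described below: an Esr1 region at chr10:4672037-4672136 with the repeat bound by PPARγ and RXR (DR1) and an Arntl region at chr7:113186145-113186244. Their matches lie at 21 bp and -134 bp from the summit.
Esr1 region, DR1 motif: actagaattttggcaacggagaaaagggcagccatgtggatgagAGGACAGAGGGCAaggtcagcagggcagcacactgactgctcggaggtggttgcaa
Arntl region, AP-1 motif: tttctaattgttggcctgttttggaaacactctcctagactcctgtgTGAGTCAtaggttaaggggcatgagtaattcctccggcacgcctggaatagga
The capitals mark letters that match a searched pattern, and no binding was measured.

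Shared distal regions were of middling strength and clearly weaker than shared promoters in every library. Their median ranks were 36.1% and 33.6% in controls 1 and 2 and 41.9% and 31.5% in BPA libraries 1 and 2, while regions shared within 2 kb of a start site had medians of 10.4%, 12.2%, 9.90% and 6.91%. The mean difference over the 4 libraries was 25.9 ± 4.41 percentage points (SD, n = 4), in the same direction in 4 of 4. Regions shared at more than 50 kb had medians of 35.3%, 30.2%, 45.5% and 33.6%, and the distal regions differed from them by -0.381 ± 3.16 points (SD, n = 4), with the sign split between libraries. A two-sided exact sign-flip permutation test over the 4 libraries gave p = 0.13 for the first difference, which is the smallest value that 4 libraries allow, and p = 0.875 for the second. Over the 3 contrasts run on ranks, Benjamini-Hochberg values from these exact tests were 0.188 and 0.875, so none passes 0.05.

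**Figure D1:**
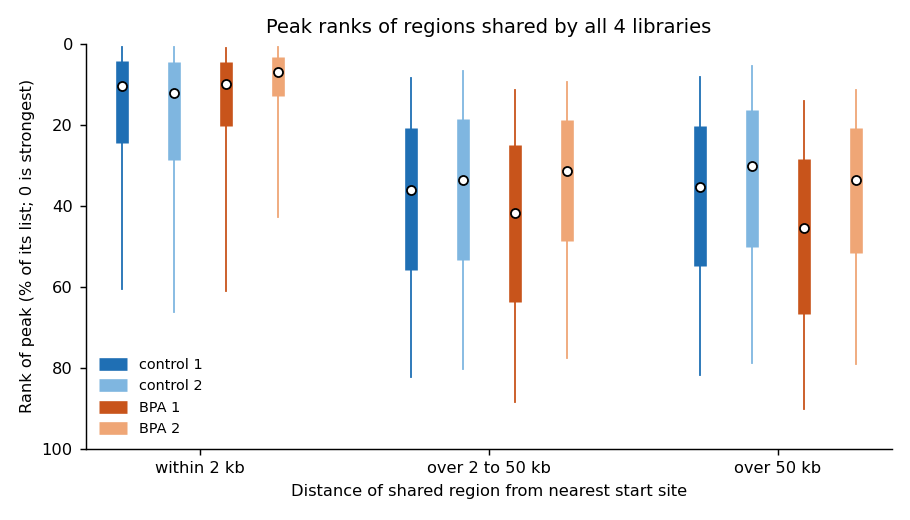
Ranks of the peaks in regions shared by all 4 libraries, as percent of each library's list with the strongest at the top, by distance of the region from the nearest start site; thick bars run from the 25th to the 75th percentile, thin lines from the 5th to the 95th, and white points are medians, for control 1, control 2, BPA 1 and BPA 2. Medians lie between 6.91% and 12.2% within 2 kb, between 31.5% and 41.9% at over 2 to 50 kb, and between 30.2% and 45.5% beyond.

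The median −log10 q-value at shared distal regions was 8.80 and 11.4 for the controls and 11.0 and 26.0 for BPA, a scale that rises with a library's depth and is not compared between libraries. Very strong regions were rare among them. All 4 ranks lay in the best 10% of the lists for 251 (1.47%) of the shared distal regions, for 34.6% of the shared promoters and for 0.710% of the regions beyond 50 kb. At the other end, 946 (5.55%) ranked in the weaker 50% of every list. Across the 17056 regions the ranks of the BPA libraries had a Spearman correlation of 0.792 with each other and those of the controls 0.584, while pairs of a control and a BPA library had 0.322 to 0.414. These are descriptions over regions, which share their library, its depth and their base composition. The regions were 1091 bp wide at the median (595 bp to 2135 bp from the 5th to the 95th percentile) and covered 20.3 Mb. The summits of a region lay within 166 bp of each other at the median, and 1960 regions (11.5%) held more than 1 peak in at least 1 library.

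Of 24928 genes with a curated start site on these chromosomes, 9272 (37.2%) were the nearest gene of at least 1 shared distal region, and the share was 37.3% (7456 of 19996) for protein-coding genes. The regions were spread thinly: 5109 genes had 1 region, 3275 had 2 or 3, and 888 had 4 or more. Those 888 genes held 4290 regions, 25.2% of the total, and 37 genes had 8 or more. A gene far from its neighbours has more room, so each count was set beside the gene's territory, the length of genome for which its start site was the nearest at 2 to 50 kb. The mean density was 1.57 regions per 100 kb of territory. Over the genes with a region, counts and territories had a Pearson r of 0.429 and a Spearman correlation of 0.381, a description across genes that are not independent. Neighbouring regions with midpoints within 10 kb of each other formed 2363 clusters, which held 5449 regions (31.9%), and the largest had 7.

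Dlc1, Esr1 and Foxp1 had 11 regions each. Dlc1 encodes a GTPase-activating protein, and both control ranks were better than both BPA ranks at 9 of its 11 regions, with the reverse at none. Over all shared distal regions the controls ranked better in this sense at 29.4% and BPA at 23.7%, and over shared regions at any distance at 27.5% and 27.8%. The strongest Dlc1 region, from 36660248 to 36661577 on chromosome 8, ranked at 6.41% and 11.4% in the controls and at 21% and 18.1% in BPA. Esr1 encodes oestrogen receptor α. Of its 11 regions, between 4604672 and 4733042 on chromosome 10, 10 lay in its introns. Both control ranks were better at 5 and both BPA ranks at none. The region from 4631911 to 4633800, 20866 bp downstream of a start, ranked at 10.8% and 13.5% in the controls and at 51.7% and 57.5% in BPA. The region that holds the DR1 motif printed above ranked at 19.7% and 7.57% against 25.7% and 35.6%. At 6 Esr1 regions the groups overlapped, as at the one from 4694142 to 4694834 with 42.2% and 18.7% against 27.9% and 15.1%. Foxp1, a forkhead transcription factor gene, had all 11 in introns and the groups overlapped at 4 of them, with 3 better in BPA and 4 in the controls.

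**Figure D2:**
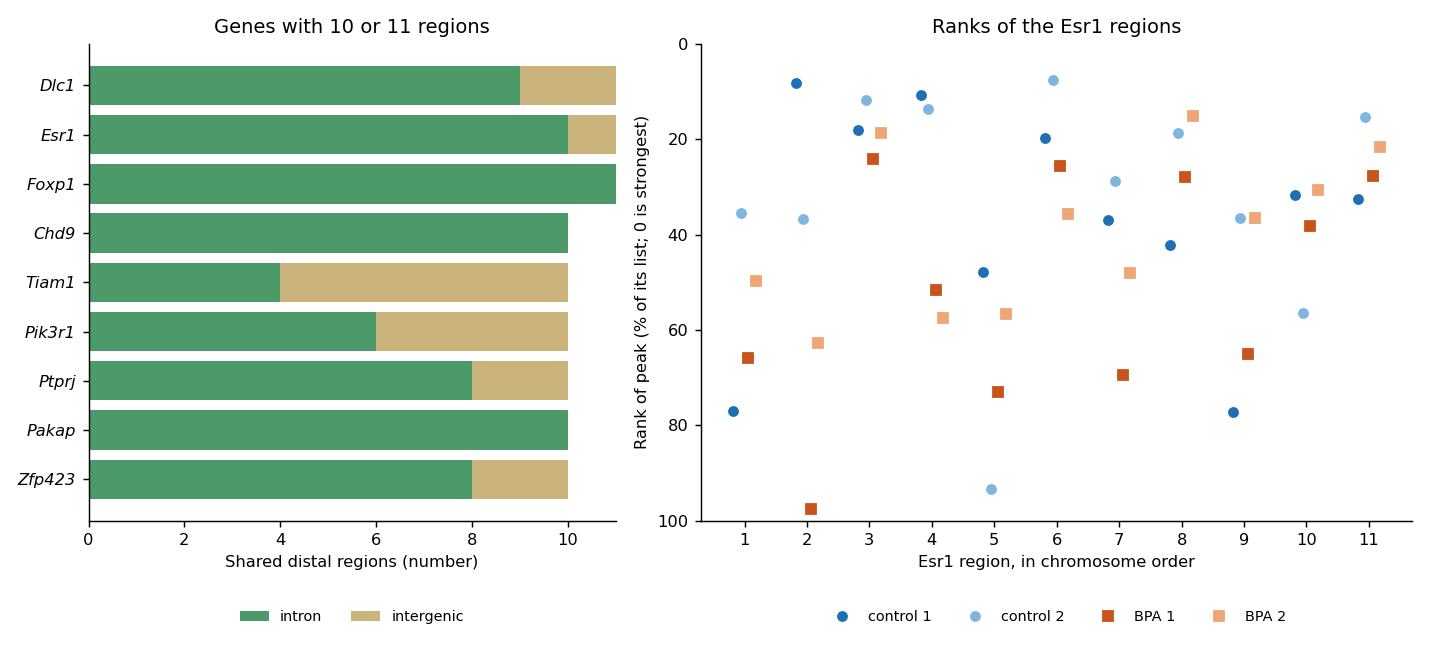
Left, number of shared distal regions of the 9 genes with 10 or 11, divided by the place of the region's midpoint; Foxp1, Chd9 and Pakap have all of theirs in introns. Right, rank of the peak in each of the 4 libraries (percent of its list, strongest at the top) for the 11 Esr1 regions in chromosome order; controls are circles and BPA libraries are squares, and at 5 of the regions both controls rank better than both BPA libraries.

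A count of 10 regions was reached by 6 genes. Chd9, which encodes a chromodomain helicase, had the strongest set, with a median worst rank of 25.4% against 43.6% to 68.0% for the other 5. Its region from 90907491 to 90909553 on chromosome 8 ranked at 2.39%, 1.47%, 2.53% and 2.00%, and lay 23727 bp from the nearest curated RefSeq start but 92 bp from a start in the GENCODE M21 annotation. The best rank of the other 5 in a single library lay between 3.01% and 29.8%. Tiam1, an activator of the GTPase Rac1, had most of its regions (6 of 10) between genes, unlike the other 8 genes with 10 or 11. Pik3r1, which encodes the regulatory subunit of the kinase downstream of the insulin receptor, had 6 in introns and 4 between genes. Ptprj, a receptor tyrosine phosphatase, and Zfp423, a zinc finger factor of preadipocyte commitment, had 8 in introns each. Pakap, the joint locus of a paralemmin and a kinase-anchoring protein, had all 10 in introns. With only peaks of −log10 q of at least 5 the counts fell to 9 for Dlc1, 7 for Esr1, 5 for Foxp1, 6 for Tiam1, 5 for Pik3r1, 4 for Pakap and 5 for Zfp423, and stood at 8 for Chd9 and Ptprj. Dlc1 reached 18 when a peak in BPA 1 was not asked for, and Chd9 kept 6 when regions within 2 kb of a GENCODE start were left out.

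Measured per length of territory, other genes came first. Among genes with 4 or more regions the densest were the non-coding RNA gene Gm15441 with 4 regions (28.3 per 100 kb), Gm46637 with 5 (20.9), Actb with 5 (17.5), Fxyd2 with 4 (17.5) and Prelp with 9 (17.1). Territories of the first 4 were short, from 14.1 kb to 28.6 kb, and that of Prelp was 52.7 kb. Prelp encodes a small leucine-rich proteoglycan of the extracellular matrix, and its 9 regions, between 133915927 and 133962327 on chromosome 1, lay 3364 bp to 40456 bp from a start, 7 of them between genes. Actb, the cytoplasmic β-actin gene, had all 5 regions upstream and between genes. Both BPA ranks were better at 4 of them, beside 23.7% of all shared distal regions, and both control ranks at none, beside 29.4%. One of the 4, from 142928854 to 142929834 on chromosome 5, ranked at 37.3% and 25.4% in the controls and at 5.92% and 7.0% in BPA. The remaining Actb region was strong in every library, at 5.62%, 2.64%, 4.20% and 6.99%. All 5 regions that were nearest to Gm46637 were shared, but 3 of them lay in introns of Arhgef37.

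Shared distal regions were densest between 6 kb and 10 kb from a start, at 17.5 per Mb, and thinned slowly to 13.7 per Mb at 46 to 50 kb. The bin from 2 to 6 kb was the sparsest, at 12.4 per Mb. Distal regions of any library followed the same course, from 54.7 per Mb at 2 to 6 kb over 76.0 at 10 to 14 kb to 65.2 at 46 to 50 kb, so the shared part stayed between 21% and 23.3% in every bin. Median ranks were also level, for instance between 34.7% and 38.0% in control 1 over the 12 bins. In BPA 1 they went from 39.7% in the nearest bin to 44.2% in the farthest. Of the shared distal regions 7279 (42.7%) lay upstream of the nearest start and 9777 downstream.

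**Figure D3:**
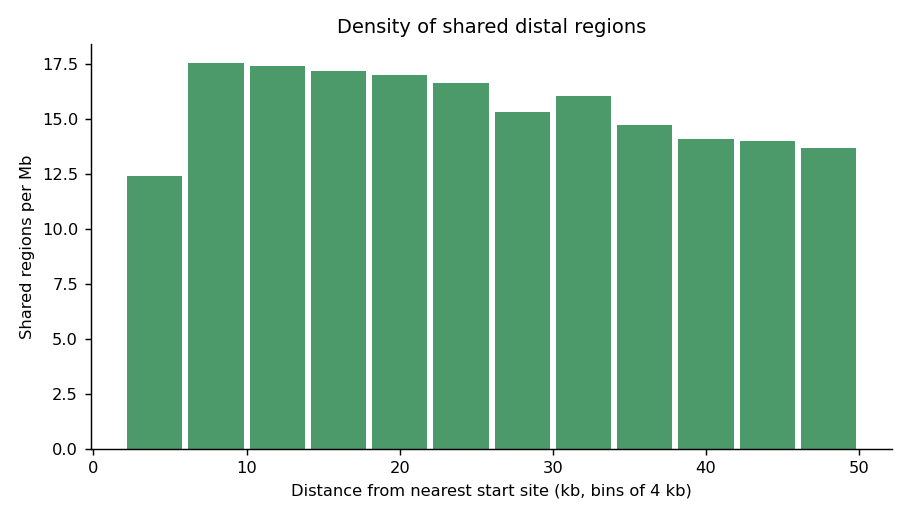
Shared distal regions per Mb of genome at each distance from the nearest curated RefSeq start site, in bins of 4 kb. Density is 12.4 per Mb at 2 to 6 kb, highest at 6 to 10 kb with 17.5, and 13.7 in the last bin.

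By the place of the midpoint 8618 shared distal regions (50.5%, Wilson interval 49.8 to 51.3%) lay in introns, 7613 (44.6%, 43.9 to 45.4%) between genes and 825 (4.84%, 4.53 to 5.17%) in exons. Intervals of this kind cover counting error only. The genome at the same distances was 47.8% intron, 48.0% intergenic and 4.23% exon. Regions with a peak in 1 library only, at the same distances, were in introns more often, 56.4% of 29329 (55.8 to 56.9%), and between genes less often, 38.5% (38.0 to 39.1%). Of the regions in introns 6351 (73.7%) lay in a transcript of the nearest gene itself, and the others in a neighbour, as with the 4 regions counted for Apoa1 that lay in Sik3. Regions between genes ranked better than those in introns in each library. With introns first, medians were 38.4% against 32.9% and 35.9% against 31.2% for the controls, and 44.7% against 38.6% and 34.1% against 28.6% for BPA. The mean difference was 5.45 ± 0.559 percentage points (SD, n = 4, exact sign-flip permutation test p = 0.13, the smallest possible).

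Genes of fat metabolism were often accompanied by shared distal regions. In 19 gene lists, 117 of the listed genes had a region. For the 11 genes of insulin signalling and glucose uptake it was 10 (90.9%), for 12 genes of fatty acid synthesis 11 (91.7%), for 15 adipogenic transcription factors 11 (73.3%), and for 14 genes of lipid droplets and lipolysis 10 (71.4%), beside 37.2% of all genes. Their densities were 4.83, 3.85, 3.75 and 5.11 regions per 100 kb, beside 1.57 overall. Among genes of cell types other than fat cells, 1 of 7 skeletal muscle genes (14.3%, 0.502 per 100 kb) and 2 of 10 lymphocyte genes (20%, 0.728) had a region. The shares of 3 of 8 hepatocyte genes (37.5%, 1.55 per 100 kb), 3 of 7 neuronal genes (42.9%, 0.825) and 3 of 7 germ cell genes (42.9%, 2.21) were not below that of all genes. Endothelial genes (9 of 15, 1.63 per 100 kb) and macrophage genes (6 of 10, 1.62) lay near the overall density, and the mesothelial list (5 of 7) at 4.23. The densities describe these lists and were not tested. Of the remaining lists, 7 of 8 Krüppel-like factor genes (3.34 per 100 kb), 6 of 9 AP-1 and early response genes (3.58), 9 of 12 progenitor and fibroblast genes (2.96), 7 of 12 clock genes (2.8), 5 of 8 adipokine genes (4.29), 5 of 10 thermogenic genes (2.04) and 4 of 7 pericyte and smooth muscle genes (1.91) had a region.

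Among the adipogenic factors Zfp423 had 10 regions, Rxra 7, Pparg 5, Ebf2 5 and Cebpa 4. Pparg encodes the master regulator of fat cell formation. Its region from 115462440 to 115463734 on chromosome 6, in an exon, ranked at 20.5% and 43.7% in the controls and at 10.2% and 9.18% in BPA. Another, from 115366969 to 115368135 and 5203 bp downstream of a start, was among the weakest peaks of every list, at 91.8%, 98.3%, 99.9% and 89.9%. The best adipogenic region lay 44591 bp upstream of Ebf2, a brown and beige fat factor, and ranked at 2.42%, 1.64%, 3.80% and 2.58%, and its sequence with the C/EBP motif is given above. For lipid handling Cd36, the fatty acid translocase, had 7 regions, Lpl, the lipoprotein lipase, 5 and Aqp7, the glycerol channel, 4. The Cd36 region from 17875997 to 17877658 on chromosome 5 was strong in each library, at 7.23%, 4.99%, 18.7% and 13.3%. The Aqp7 region from 41030758 to 41032714 on chromosome 4 was weak in the controls, 85.4% and 98.2%, and stronger in BPA, 13.8% and 14.2%. On the insulin list Pik3r1 had 10 and Cblb 5. Scd1 and Lpin1 led fatty acid synthesis with 5 each. Fasn had 3, all in introns of genes other than Fasn.

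Lep, the leptin gene, had 5 of the 10 adipokine regions. Both control ranks were better at 3 of them, beside 29.4% of all shared distal regions, and both BPA ranks at none, beside 23.7%. One of the 3, from 29073401 to 29075373 on chromosome 6, ranked at 36.7% and 24.3% in the controls and at 60.3% and 58.5% in BPA. The one 28138 bp downstream did not separate the groups, with 25.5% and 8.48% against 10.1% and 10.2%. Ucp1, the uncoupling protein of brown fat, had 3 regions upstream, 2 of them in introns of Tbc1d9. The strongest ranked at 10.8%, 12.8%, 48.4% and 24.6%. Acta2, smooth muscle actin, had 2 regions, Ptprc, the leukocyte antigen CD45, had 2, Il7r 2, Wt1, a mesothelial transcription factor, 4, Klf2 5, Snap25 2 and Myh1 1. The 3 Klf2 regions in introns lay in Eps15l1. The 4 regions counted for the germ cell gene Sycp3 all lay in introns of Gnptab.

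The strongest shared distal regions looked different from the rest. The 251 with all 4 ranks in the best 10% had a median G+C content of 59.0% in the 300 bp around the summit, against 49.7% for the other 16805, and an observed to expected CpG ratio of 0.596 against 0.242. They lay between genes in 68.9% against 44.3%, and held the GC box GGGCGG in 53.8% against 11.7%. Of the 251, 83 (33.1%) lay within 2 kb of a start site in the wider GENCODE M21 annotation, against 14.6% of the others, and 66 (26.3%) within 500 bp, against 6.27%. Over all shared distal regions 2539 (14.9%) lay within 2 kb of a GENCODE start and 1119 (6.56%) within 500 bp. Ranks chose these 251, so the contrast is a description. The 5 with the best worst rank were nearest to Rn4.5s, Foxj2, Mier3, Spaca6 and Pum2. The Rn4.5s region ranked at 0.0714%, 0.0754%, 0.144% and 0.00816%. The Foxj2 region, from 122810321 to 122811993 on chromosome 6, ranked at 0.266%, 0.0889%, 0.203% and 0.0724%, and lay 9027 bp from the curated start of this forkhead gene but 13 bp from a GENCODE start. The Mier3 region (0.461%, 0.234%, 0.120% and 0.231%) lay 111 bp and the Spaca6 region (0.905%, 0.441%, 0.0718% and 0.511%) 113 bp from one, while the Rn4.5s region lay 13906 bp from one.

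Between the groups, ranks were set side by side without a test, since 2 libraries against 2 cannot give an exact two-sided p under 0.33. Both BPA ranks were better than both control ranks at 4040 shared distal regions (23.7%), beside 27.8% of all shared regions, and the reverse held at 5016 (29.4%), beside 27.5%. Without control 2 the order turned, with 7839 regions better in BPA and 7536 better in the remaining control library. At shared promoters the shares were 40.6% and 18.8%, and beyond 50 kb 17.3% and 36.5%. Median ranks of shared distal regions were 34.9 ± 1.76% in the controls and 36.7 ± 7.36% in BPA (mean of library medians ± SD, n = 2), a difference within the spread of the BPA libraries. Base composition moved with the direction. The median G+C content was 52.7% where BPA ranked better, 47.7% where the controls did and 49.7% where the groups overlapped. In 5 classes of near equal size, from the lowest to the highest G+C content, the share with better BPA ranks went from 12.2% over 18.1%, 20.8% and 27.7% to 40.2%, and the share with better control ranks from 41.9% over 34.4%, 30.1% and 24.8% to 15.3%. The part of base composition in the differences between groups at single genes was not tested.

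**Figure D4:**
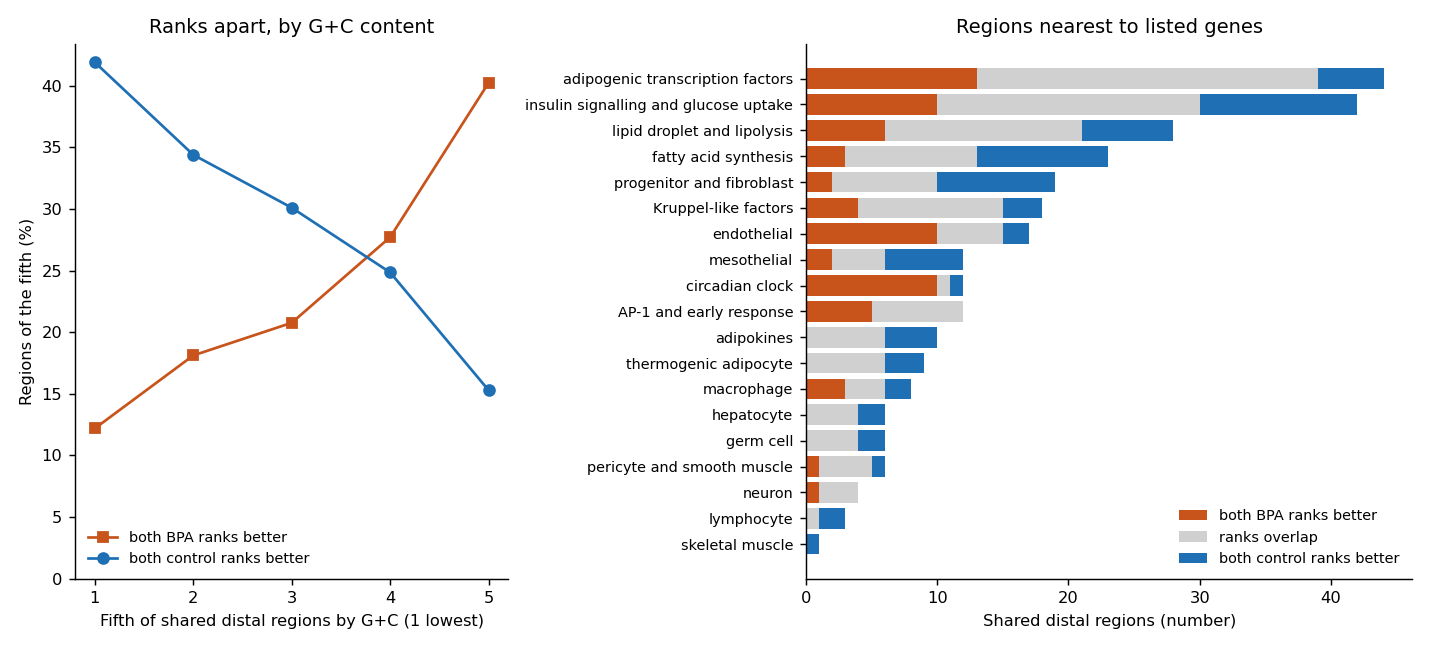
Left, percent of shared distal regions in which both BPA ranks were better than both control ranks (squares) or the reverse (circles), in 5 classes of the regions by G+C content of 300 bp; the first rises from 12.2% to 40.2% and the second falls from 41.9% to 15.3%. Right, number of shared distal regions nearest to the genes of each list, divided into regions with both BPA ranks better, overlapping ranks and both control ranks better; clock genes have 10, 1 and 1.

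Some gene groups leaned to one side. Of 12 regions nearest to clock genes, 10 had better ranks in both BPA libraries, beside 23.7% of all shared distal regions. At 1, near Cry1, both controls ranked better, beside 29.4%. The 10 included all 3 of Per2, 3 of the 4 of Arntl, the gene of the clock activator BMAL1, and those of Nr1d1, Per1, Cry2 and Tef. The Nr1d1 region, 7791 bp upstream of this nuclear receptor gene (98782288 to 98784049 on chromosome 11), ranked at 40.6% and 29.7% in the controls and at 6.68% and 8.53% in BPA. The Per1 region ranked at 10.5% and 8.16% against 2.33% and 4.10%. The best Arntl region, printed above, ranked at 26.2% and 32.6% against 11.8% and 14.2%. The Cry1 region ranked at 11.4% and 10.1% in the controls and at 42.7% and 28.2% in BPA. When regions were ranked by the fold over background in place of the q-value, 3 of the 12 had better BPA ranks and 2 better control ranks. The shares of all shared distal regions given here are by q-value, so the counts by fold are not set against them. The median G+C content of the 12 was 54.3%, in the next to highest class, in which 27.7% of all shared distal regions had better BPA ranks. Without BPA 1, 3 of 15 had better control ranks, and without BPA 2, 2 of 13. Leaving out a library also raised such counts over all shared distal regions, so these counts are not set against the shares above. The time of day at which tissue was taken is not in the labels.

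Of the 12 regions nearest to AP-1 and early response genes, 5 had better BPA ranks (41.7%, beside 23.7% of all shared distal regions) and none better control ranks (beside 29.4%). All 4 Fos regions were among the 5, though not the 3 of Jun. The Fos region from 85454893 to 85455996 on chromosome 12 ranked at 2.75% and 3.95% in the controls and at 1.13% and 1.28% in BPA. The one from 85436771 to 85438009 ranked at 54.8% and 38.4% against 13.1% and 9.97%. Ranked by fold, 2 of the 12 had better BPA ranks and 2 better control ranks. The shares above are by q-value, so the counts by fold are not set against them. With 1 library left out, those with better control ranks numbered 5 (without control 1), 2 (control 2), 1 (BPA 1) or 4 (BPA 2), and those with better BPA ranks 7, 8, 5 or 5. Over all shared distal regions both counts also rose with any library left out, so these counts are not set against the shares above. The median G+C content of this list was 53.8%, in the class in which 27.7% of regions had better BPA ranks and 24.8% better control ranks.

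Of the 17 endothelial regions 10 had better BPA ranks (58.8%, beside 23.7%) and 2 better control ranks (11.8%, beside 29.4%). Their median G+C content was 52.3%, in the same class as the lists of clock and AP-1 genes, with shares of 27.7% and 24.8%. A Pecam1 region (106674437 to 106675810 on chromosome 11), in an intron of the gene of this endothelial adhesion protein, ranked at 19.8% and 31.6% in the controls and at 10.2% and 4.91% in BPA. The Tek region from 94715226 to 94716485 on chromosome 4, upstream of the gene of the angiopoietin receptor, ranked at 70.2% and 48.3% against 29.4% and 24.0%. A Kdr region went the other way, with 11.7% and 23.5% against 53.5% and 81.2%. Endothelial promoters moved with this list, with peaks at 2 of 5 in each control and at 5 of 5 in each BPA library, and their part in it was not tested. Better control ranks rose to 8 of 24 regions without control 2 and to 7 of 18 without BPA 2, and better BPA ranks stood at 14 and 10. Over all shared distal regions both counts rose with any library left out, so these counts are not set against the shares above. The cause of the change in this list was not tested. At progenitor and fibroblast genes 9 of 19 regions had better control ranks (47.4%, beside 29.4%) and 2 better BPA ranks (10.5%, beside 23.7%). Both Dcn regions, near the gene of the matrix proteoglycan decorin, were among the 9, as at 97469354 to 97470228 on chromosome 10 with 11.8% and 13.3% against 39.4% and 31.8%. Better BPA ranks numbered 9 of 23 without control 1, 5 of 22 without control 2 and 4 of 22 without BPA 1. In the same order, better control ranks numbered 11, 14 and 12. Ranking by fold gave 4 with better BPA ranks and 7 with better control ranks. The shares of all shared distal regions are by q-value with every library in, so these counts are not set against them. The list's median G+C content was 43.7%, in the lowest class. In that class 41.9% of regions had better control ranks and 12.2% better BPA ranks, close to the shares of this list. The part of G+C content was not tested.

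For the other lists the numbers of regions with better BPA ranks and with better control ranks were 13 and 5 of 44 for adipogenic factors, 10 and 12 of 42 for insulin signalling, 6 and 7 of 28 for lipid droplets and 3 and 10 of 23 for fatty acid synthesis. They were 4 and 3 of 18 for Krüppel-like factors, 2 and 6 of 12 for mesothelial, 0 and 4 of 10 for adipokines, 0 and 3 of 9 for thermogenic genes and 3 and 2 of 8 for macrophage genes. They were 1 and 1 of 6 for pericyte, 0 and 2 of 6 for hepatocyte, 0 and 2 of 6 for germ cell, 1 and 0 of 4 for neuronal, 0 and 2 of 3 for lymphocyte and 0 and 1 of 1 for skeletal muscle genes. Over all shared distal regions the shares were 23.7% and 29.4%. Rxra, the gene of the partner of PPARγ, had 4 of its 7 regions better in BPA and none in the controls.

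The gap between groups was also read as a ratio, of the better rank of the weaker group to the worse rank of the stronger one, and 3 regions were named in each direction. On this scale strong peaks come first, and regions such as that of Aqp7 or Esr1 above were farther apart in percentage points. The widest ratio toward BPA was 26296 bp downstream of Rpp21, a subunit gene of ribonuclease P, from 36231255 to 36231845 on chromosome 17, with ranks of 25.8% and 23.1% in the controls and 0.0249% and 0.469% in BPA. An intron region of Sfi1 ranked at 32.1% and 54.4% against 2.26% and 3.23%, and one in Batf, a gene of an AP-1 family factor, at 6.65% and 7.71% against 0.946% and 0.713%. Toward the controls the widest ratio lay 24300 bp downstream of 4933422A05Rik, from 35305229 to 35305582 on chromosome 9, and ranked at 0.00605% and 0.00675% in the controls and at 3.24% and 7.33% in BPA. Its 300 bp window was 93.7% repeat-masked. The next, near the zinc finger genes Zfp418 and Rslcan18, ranked at 0.390% and 0.447% against 12.3% and 9.84%, and at 0.133% and 0.202% against 5.95% and 4.04%. The Rslcan18 region lay 4 bp from a GENCODE start, and those of Rpp21, 4933422A05Rik and Sfi1 lay 2081 bp, 2194 bp and 2279 bp from one.

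Motifs were searched on both strands in 300 bp around the summit, and the central 100 bp were set against the flanks. The CTCF pattern CCANNAGNNGGC was the most concentrated at the summit: it occurred in 9.11% of the shared distal windows (Wilson interval 8.68 to 9.55%), with 0.662 matches per kb in the centre and 0.134 in the flanks, a ratio of 4.94. The share was 5.47% in all merged regions, 3.69% at shared promoters, 6.45% beyond 50 kb and 4.27% (4.05 to 4.51%) in distal regions of 1 library. The C/EBP pattern TTGCNNAA had the highest share of the 15 patterns searched, 19.9% (19.3 to 20.5%), with a ratio of 1.47. Its share was 17.4% in all merged regions, 7.44% at shared promoters and 24.1% beyond 50 kb. Patterns with fewer fixed letters match more often, so shares of different patterns do not rank the factors. The AP-1 pattern TGANTCA came next with 15.5% (14.9 to 16%) and a ratio of 1.43. Its share was 13.7% in all merged regions, 4.40% at shared promoters and 17.0% beyond 50 kb. The GC box of SP and KLF factors was in 12.3%, against 12.2% of all merged regions, 64.8% of the shared promoters and 8.20% beyond 50 kb. The GATA pattern, AGATAA, was in 13.2% and slightly depleted at the summit, with a ratio of 0.912. The DR1 pattern AGGNCANAGGNCA was in 121 windows (0.709%). Its share was 0.599% in all merged regions, 0.217% at shared promoters and 0.757% in distal regions of 1 library. The glucocorticoid receptor pattern GNACANNNTGTNC was in 309 (1.81%, against 1.25% of all merged regions and 2.07% beyond 50 kb). The other patterns, for NF1, EBF, ETS, TEAD, MEF2, RUNX, FOX and SOX, were in 0.123% to 8.60% of windows.

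**Figure D5:**
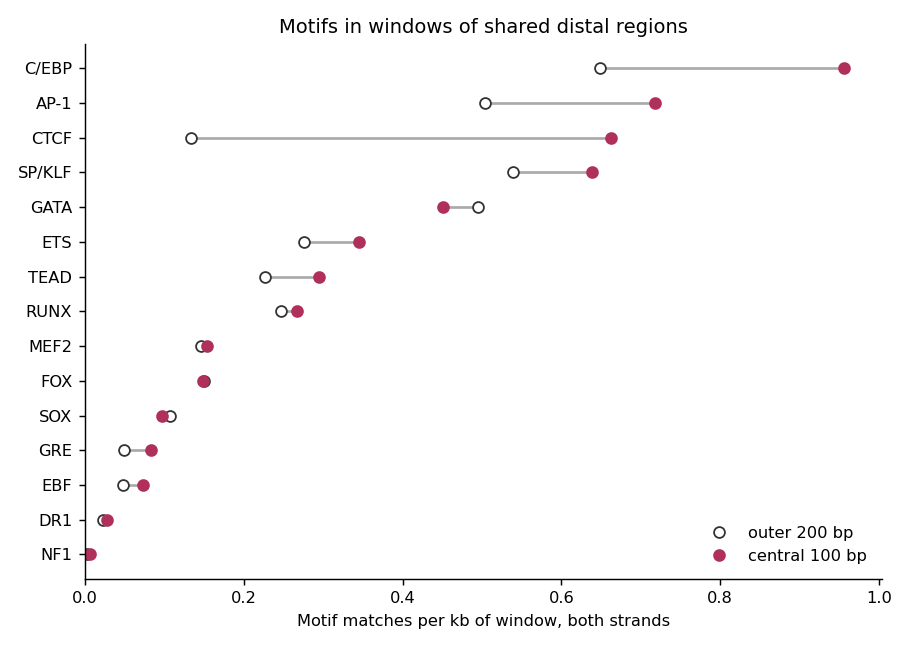
Matches per kb, counting both strands, to 15 motif patterns in the 300 bp windows of shared distal regions; filled points are the central 100 bp and open points the rest of the window. CTCF has the widest gap, 0.662 against 0.134 per kb, and C/EBP the highest density, 0.956 against 0.649. Patterns differ in their number of fixed letters, so densities are not comparable between them.

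Windows with a motif also differed in rank. Those with the GC box had medians of 29.8%, 29.7%, 27.7% and 21.3% in control 1, control 2, BPA 1 and BPA 2, against 37.0%, 34.1%, 43.9% and 32.8% for those without. Those with CTCF had medians of 32.2%, 31.1%, 43.9% and 32.4%, against 36.5%, 33.9%, 41.7% and 31.4%, so they ranked better in the controls and slightly worse in BPA. Control ranks were the better ones at 146 of the 309 windows with the glucocorticoid receptor pattern (47.2%), at 34.8% of those with C/EBP, 35.3% with CTCF, 36.3% with GATA and 28.7% with AP-1, beside 29.4% of all shared distal regions. BPA ranks were the better ones at 34.8% of those with the GC box and 29.9% of those with ETS (ACNGGAAG), beside 23.7%. The patterns differ in G+C content themselves, and their part beyond it was not tested.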

How the data were processed

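ATAC-seq peak lists of 4 libraries were used, 1 list per library. Per the labels the authors used Trim Galore, Bowtie2 2.3.5.1, SAMtools and MACS2 2.2.7.1 with mm10. By the study's methods, reads were mapped uniquely, PCR duplicates were removed, and peaks were called on each library without pooling. Reads of CD-1 mice were mapped to mm10, which is of another strain, and sequence shown is that of the reference. Each deposited peak has a score, which is its −log10 q-value times 10 without decimals. It also has, as deposited, a fold of the summit over local background. The −log10 of the p-value and of the q-value were deposited from the peak caller, whose other options are not given in the sources used here. The lowest −log10 q-value was 1.30 to 1.31 in each list, so q-values were limited to 0.05.

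Merging, ranks, distances, places and motifs used pandas 2.3.3, numpy 2.4.6 and scipy 1.17.1 under Python 3.11.15. Start sites of 45756 curated transcripts, and sequence, came from RefSeq on GRCm38, the assembly that mm10 names, and GENCODE M21 served as an alternative. The steps were tested on simulated sites, with 9 of 9 checks passed. Named genes were the 10 with most regions, the 5 densest with 4 or more, the first of each list, and those of the 5 best-ranked and the 3 widest-gap regions in each direction. Of these, 1 item is not reported here. Others named, and the counts per gene within lists, were chosen after their values were seen. The members and lists were chosen with earlier results of these data known. By the study's text the libraries came from 4 mice, whose litters are not given. Regions are not replicates, and tests ran only over the 4 libraries. Alternatives covered thresholds, start sites, distance limits, joining of peaks, ranking, windows and each library left out.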

Additional observations from a re-analysis of the deposited data

How the results depend on the processing

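No paired analysis was possible because the comparison of groups is a description that comes from no test. The sign-flip tests over libraries were paired, as they compared classes of region within each library. Of 463 values under alternative settings 369 kept the reported value within its error, within 1.5 times or by its sign, and 94 moved. Sign was the measure only for the rank difference between distal regions and promoters, and it changed in 0 settings. Counts and shares could not register a reversal. The balance of the groups did turn once: regions with better control ranks outnumbered those with better BPA ranks by 5016 to 4040, but without control 2 there were 7536 and 7839. The causes were not tested, except that stricter limits leave fewer regions and a group with 1 library left separates more easily. With −log10 q of at least 5 there were 10762 regions, an intron share of 47.7%, a mean median rank of 27.4%, 2193 regions with better BPA ranks, CTCF in 10.0% and SP/KLF in 14.4%. With the best 70000 peaks of each list the intron share was 49.2%, CTCF 9.67% and SP/KLF 13.1%. Protein-coding start sites gave an intron share of 51.4% and SP/KLF in 13.2%, a lower limit of 1 kb SP/KLF in 13.1%, and one of 5 kb 11.6%. An upper limit of 20 kb gave 9693 regions, 2448 with better BPA and 2694 with better control ranks, CTCF in 9.63%, C/EBP in 19.1% and SP/KLF in 13.8%. Windows at the midpoint held CTCF in 6.16%, C/EBP in 16.5%, AP-1 in 12.9% and SP/KLF in 10.7%. Introns of all RefSeq models took 54.4%. Leaving out regions near GENCODE starts, an alternative chosen after seeing the data, gave an intron share of 49.1% and SP/KLF in 11.1%. Leaving out 1 library at a time gave intron shares of 50.4% to 51.3%, 4508 to 7839 regions with better BPA ranks, 7536 to 9019 with better control ranks, and CTCF in 8.64% to 10.0%, C/EBP in 18.3% to 20.6%, AP-1 in 14.7% to 15.7% and SP/KLF in 11.0% to 12.2%. Depth is unknown, so weak regions may be missed in the libraries with fewer peaks.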
